A study of Mus musculus with 21 samples.

Results

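The small leucine-rich proteoglycans described here are 7 genes, *Ogn*, *Lum*, *Dcn*, *Bgn*, *Fmod*, *Prelp* and *Omd*, measured in the mouse dentate gyrus. They were chosen by gene symbol, and all 17 probe sets annotated to one of these symbols alone were taken from the 45037 non-control probe sets of the array. *Ogn* and *Lum* were chosen from their low values in bitransgenic arrays against monotransgenic arrays of set 1, so those 2 contrasts are descriptions that support nothing, and the other 5 genes were added as members of the same family. Of the 17 probe sets, 6 passed a filter on dim probe sets, and 4 of the 7 genes (*Ogn*, *Lum*, *Dcn* and *Bgn*) were tested among 12499 genes.

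Small leucine-rich proteoglycans are secreted matrix proteins whose leucine-rich repeats bind collagen and control how its fibrils assemble. Decorin (*Dcn*) and biglycan (*Bgn*) carry chondroitin or dermatan sulfate chains and also bind growth factors, while lumican (*Lum*), fibromodulin (*Fmod*), osteomodulin (*Omd*) and osteoglycin, also called mimecan (*Ogn*), can carry keratan sulfate, and PRELP (*Prelp*) ties collagen to basement membranes. In brain they are best known from the meninges and the walls of larger vessels, where fibroblasts make them.

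The study profiled mice carrying a transgene for NgR (*Rtn4r*), a receptor for myelin proteins that limit axon growth, with 21 Affymetrix arrays of total RNA from the dentate gyrus in 7 groups of 3. Set 1 titles name bitransgenic samples pTRE/NgR and monotransgenic samples NgR, and the set 1 labels say that monotransgenic mice lack the transactivator tTA, which drives such a transgene unless doxycycline blocks it; which single transgene the monotransgenic mice of the other sets carried is not stated. Set 1 held bitransgenic mice given water after doxycycline was removed (samples 9, 12 and 25), bitransgenic mice with doxycycline always in the diet (samples 13, 16 and 22) and monotransgenic mice without tTA, given water after doxycycline was removed (samples 2, 3 and 8). Experiment 2 held bitransgenic mice on water that had never met doxycycline (samples 4, 5 and 7) and monotransgenic mice on water (samples 1, 2 and 8), and set 3 held bitransgenic and monotransgenic mice with no stated treatment (replicates 1 to 3 of each). The labels used here give no age, strain or promoter for tTA, and nothing in them says that arrays are separate animals, so p-values refer only to the variation among these arrays, which may be technical. On the scale deposited, *Rtn4r* read 254 to 1469 on the 9 bitransgenic arrays without doxycycline, 73.1 to 111 on the 3 arrays of the doxycycline diet and 63.8 to 185 on the 9 monotransgenic arrays. All 9 granule cell markers listed, *Prox1* (318 to 951) among them, passed the filter. These are bulk samples, in which fewer cells of a type and less RNA per cell cannot be told apart.

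*Ogn* and *Omd* lie side by side on mouse chromosome 13, in a row of 4 family genes (*Ecm2*, *Aspn*, *Omd*, *Ogn*) with 0 other protein-coding genes between them. Their promoters are shown because the neighbours differed: *Ogn* read 525 or more on 6 monotransgenic arrays and *Omd* stayed at 16.0 or below on all 21. Each runs 5′ to 3′ from 250 bases before the gene's start to 50 after it, from RefSeq, build GRCm38.p6, plus strand, at chr13:49607765-49608064 for *Ogn* and chr13:49582212-49582511 for *Omd*. Capitals mark matches, on either strand, to the TATA-box letters TATAAA and to the E-box letters CANNTG.
Ogn: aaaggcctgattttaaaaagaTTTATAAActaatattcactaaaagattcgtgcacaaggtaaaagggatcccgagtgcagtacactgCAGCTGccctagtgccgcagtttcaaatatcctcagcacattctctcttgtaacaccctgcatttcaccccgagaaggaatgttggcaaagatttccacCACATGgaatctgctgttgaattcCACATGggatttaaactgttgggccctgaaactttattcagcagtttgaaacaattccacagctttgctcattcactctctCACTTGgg
Omd: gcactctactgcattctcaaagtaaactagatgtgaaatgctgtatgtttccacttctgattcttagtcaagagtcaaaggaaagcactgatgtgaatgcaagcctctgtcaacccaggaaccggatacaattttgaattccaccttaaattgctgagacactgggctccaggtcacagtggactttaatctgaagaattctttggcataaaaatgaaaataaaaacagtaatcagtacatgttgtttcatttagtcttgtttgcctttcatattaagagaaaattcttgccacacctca
The *Ogn* window held 2 overlapping TATAAA matches, far upstream of the start, and 4 CANNTG matches, and the *Omd* window held 0 of either. Of 32851 promoters of this length, 13.6% held TATAAA and 72.3% held CANNTG. The AP-1 letters TGANTCA, present in 7.81% of promoters, had 0 matches in the 5 members with an entry, and a match or its absence describes only these letters in this window. *Lum* lies next to *Dcn* on chromosome 10, *Prelp* next to *Fmod* on chromosome 1, and *Bgn* is on X.

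*Ogn* was the member of widest range, from 8.54 to 824 units of deposited intensity on its brighter probe set (1419663_at). In the monotransgenic group of set 1 it read 556, 728 and 636 in samples 2, 3 and 8. After doxycycline removal it read 11.7, 26.8 and 24.2 in samples 9, 12 and 25, and on the doxycycline diet 8.54, 26.8 and 16.5 in samples 13, 16 and 22. Both bitransgenic groups of set 1 thus lay far below their monotransgenic group without overlap, whether the transgene was on or held off.

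In experiment 2 the monotransgenic samples 1, 2 and 8 read 153, 79.6 and 525 for *Ogn*, and the bitransgenic samples 4, 5 and 7 read 27.9, 71.9 and 54.5. The lowest monotransgenic value was above the highest bitransgenic one, by little. In set 3 monotransgenic replicates 1, 2 and 3 read 824, 41.2 and 652, and bitransgenic replicates 1, 2 and 3 read 24.1, 143 and 44.9. Here the groups overlapped, since monotransgenic replicate 2 lay among the bitransgenic arrays and bitransgenic replicate 2 was above it. Titles that begin with the same number joined monotransgenic replicate 2 (41.2) to bitransgenic replicate 1 (24.1), and monotransgenic replicate 3 (652) to bitransgenic replicate 3 (44.9).

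**Figure D1:**
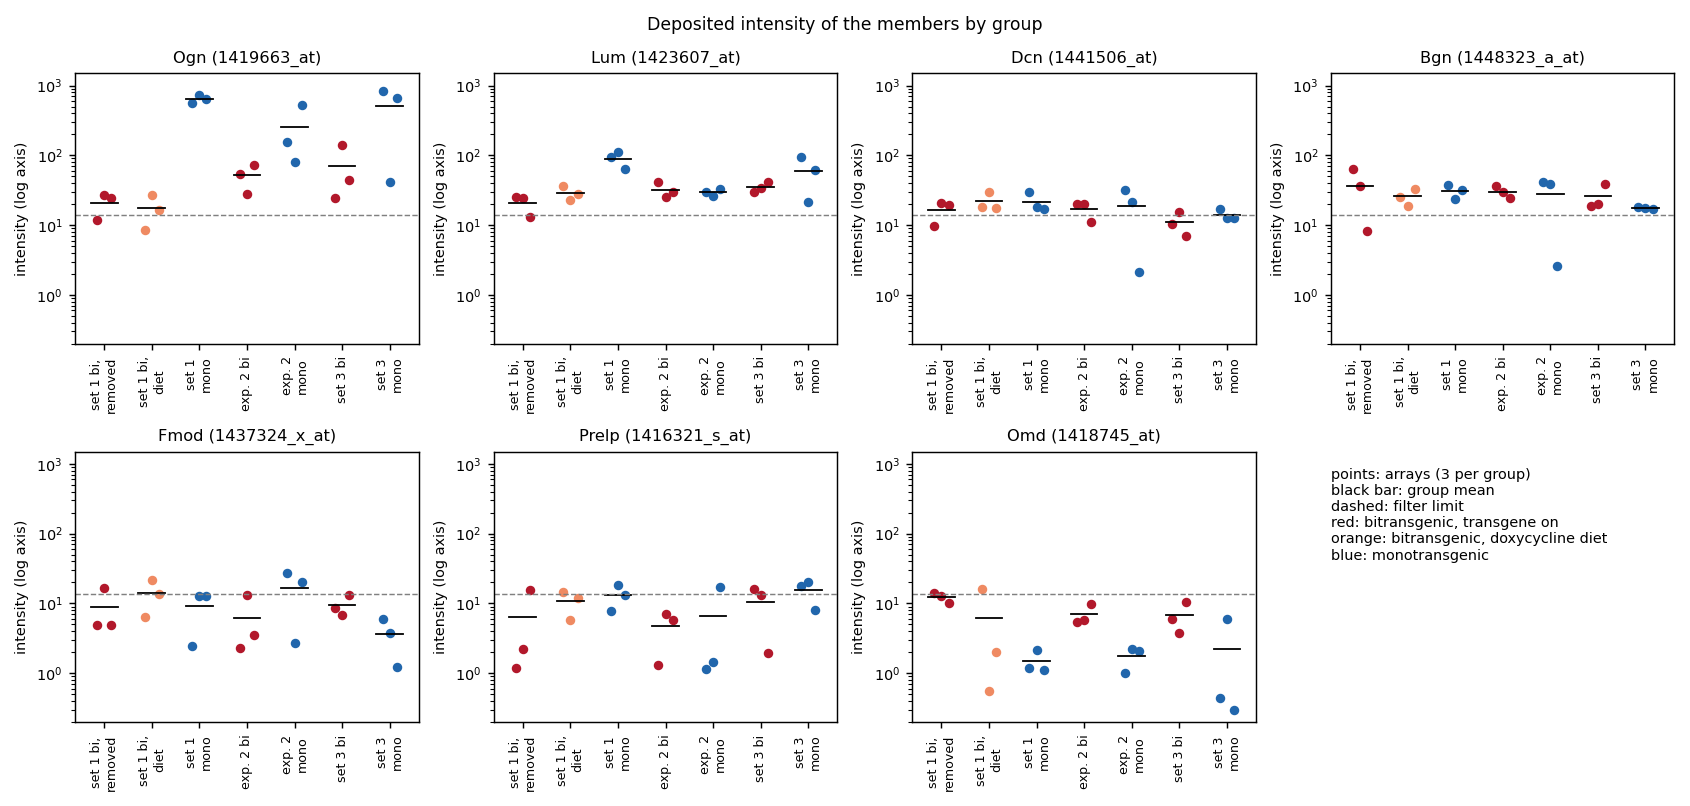
Deposited intensity (log axis) of the 7 genes, 1 panel each for the probe set of highest mean, by group, with 1 point per array, a black bar at the group mean and a dashed line at the filter limit. *Ogn* spans 8.54 to 824 with its high points in monotransgenic groups, *Lum* is highest in the set 1 monotransgenic group (63.1 to 112), and *Fmod*, *Prelp* and *Omd* sit mostly below the line.

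Ordered by group mean, *Ogn* ran from the set 1 monotransgenic group (640 ± 86.4, SD, n = 3) through set 3 monotransgenic (506 ± 411), experiment 2 monotransgenic (253 ± 239), set 3 bitransgenic (70.5 ± 63.2) and experiment 2 bitransgenic (51.5 ± 22.1) to set 1 doxycycline removed (20.9 ± 8.05) and set 1 doxycycline diet (17.3 ± 9.17). Neighbours in this order overlapped in their arrays, except experiment 2 bitransgenic (27.9 or more) and set 1 doxycycline removed (26.8 or less). Over all monotransgenic arrays the median was 556, against 27.9 over the 9 bitransgenic arrays without doxycycline.

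The second *Ogn* probe set (1419662_at) was dimmer, at 2.13 to 65.7. It read 50.5 to 65.7 in the set 1 monotransgenic group, 22.5 to 47.7 in that of experiment 2 and 57.3, 8.25 and 49.1 in replicates 1, 2 and 3 of that of set 3. The 9 bitransgenic arrays without doxycycline read 2.13 to 18.2 and the diet group 9.32 to 21.4, so the same monotransgenic array of set 3, replicate 2, was the low one on both probe sets.

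*Lum*, which binds collagen and is a close relative of *Fmod*, was brightest in the set 1 monotransgenic group, at 93.3, 112 and 63.1 in samples 2, 3 and 8 (probe set 1423607_at). It read 25.4, 24.5 and 13.1 in samples 9, 12 and 25 after doxycycline removal and 36.2, 22.6 and 28.3 in samples 13, 16 and 22 on the diet. As with *Ogn*, neither bitransgenic group of set 1 reached the lowest monotransgenic array.

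Outside set 1 the picture for *Lum* was different. In experiment 2 it read 30.2, 26.4 and 32.7 in monotransgenic samples 1, 2 and 8 and 25.1, 30.0 and 41.8 in bitransgenic samples 4, 5 and 7, with the groups overlapping. In set 3 it read 96.0, 21.3 and 62.1 in monotransgenic replicates 1, 2 and 3 and 29.5, 34.4 and 40.8 in bitransgenic replicates 1, 2 and 3, again with overlap, since monotransgenic replicate 2 was the lowest of the set. Group means fell from 89.5 ± 24.7 (set 1 monotransgenic) and 59.8 ± 37.4 (set 3 monotransgenic) to 34.9 ± 5.70 (set 3 bitransgenic), 32.3 ± 8.57 (experiment 2 bitransgenic), 29.8 ± 3.18 (experiment 2 monotransgenic), 29.0 ± 6.81 (diet) and 21.01 ± 6.86 (removed; SD, n = 3 each). All neighbours in that order overlapped in their arrays.

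*Dcn*, the collagen- and TGF-beta-binding proteoglycan, was dim throughout, at 2.14 to 32.0 with a median of 17.6 on its tested probe set (1441506_at). *Bgn*, its closest relative, read 2.62 to 64.1 with a median of 25.4 (1448323_a_at). Both were lowest on the same array, experiment 2 monotransgenic sample 8, where *Dcn* read 2.14 and *Bgn* 2.62 and where *Ogn* was high at 525. The second passing *Bgn* probe set (1416405_at) read 22.2 on that array, within its range of 4.10 to 53.5, and the second *Dcn* probe set (1449368_at) read 20.7 there, its highest value. That second *Dcn* probe set failed the filter. It is named here after its values were seen: in experiment 2 it read 14.03, 17.98 and 20.7 in monotransgenic samples 1, 2 and 8 and 0.516, 0.937 and 2.98 in bitransgenic samples 4, 5 and 7, without overlap. In set 3 its ranges overlapped, at 1.27 to 11.9 in the monotransgenic and 1.43 to 9.98 in the bitransgenic group.

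*Fmod*, *Prelp* and *Omd* did not pass the filter, whose limit was a mean log2 value of 4.90, or 13.8 units. None of the 6 *Fmod* probe sets exceeded 27.1 on any array, and neither *Prelp* probe set exceeded 20.5. *Omd*, a bone-associated family member, read 0.294 to 16.0 on its 1 probe set (1418745_at). In experiment 2 its values were 1.00, 2.21 and 2.10 in monotransgenic samples 1, 2 and 8 and 5.84, 9.65 and 5.49 in bitransgenic samples 4, 5 and 7. In set 3 they were 0.439, 6.02 and 0.294 in monotransgenic and 5.996, 3.79 and 10.4 in bitransgenic replicates 1, 2 and 3, and in set 1 they were 9.99 to 13.9 after doxycycline removal, 0.561 to 16.0 on the diet and 1.10 to 2.18 in monotransgenic mice. At this brightness *Omd* was higher in bitransgenic arrays of experiment 2 without overlap. Set 3 monotransgenic replicate 2, the array lowest in *Ogn* of its group, was the highest of its group in *Omd*. How many other dim probe sets separated these groups was not counted, for *Omd* or for the second *Dcn* probe set.

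The first question was whether switching the transgene on within bitransgenic mice moved these genes, by comparing set 1 doxycycline removal with the doxycycline diet. In one limma fit over all 21 arrays, with Benjamini-Hochberg adjustment over 12499 genes, 4 genes passed (0.032%), and 0 of the 4 tested members were among them. The log2 differences, removed minus diet, were 0.21 ± 0.74 (SE) for *Ogn*, -0.23 ± 0.28 for *Lum*, -0.18 ± 0.26 for *Dcn* and 0.24 ± 0.37 for *Bgn*, each with adjusted p = 0.999. Both groups overlapped in all 4 genes. The 95% interval for *Ogn*, -1.33 to 1.74, holds changes of over 1 log2 unit in either direction, so the test does not show equal levels; for *Lum* the interval was -0.81 to 0.35. In a fit without the filter *Omd* differed by 0.43 ± 0.19 (limma, adjusted p = 0.857).

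Against monotransgenic mice of set 1, the contrasts that chose *Ogn* and *Lum*, fitted *Ogn* values were 17.9-fold lower after doxycycline removal (log2 difference -4.16 ± 0.74, SE) and 20.7-fold lower on the diet (-4.37 ± 0.74). *Lum* was 2.79-fold lower after removal (-1.48 ± 0.28) and 2.37-fold lower on the diet (-1.25 ± 0.28). Both comparisons share their monotransgenic arrays, and folds are on the log2(value + 16) scale, which understates changes of dim genes. Over all genes, 9 passed the limma threshold after removal (0.072%) and 3 on the diet (0.024%); that *Ogn* and *Lum* are among the former and *Ogn* among the latter is how they were chosen, and nothing is read from it. *Dcn* and *Bgn* differed by -0.19 ± 0.26 and 0.04 ± 0.37 after removal and by -0.01 ± 0.26 and -0.20 ± 0.37 on the diet; the sign for *Bgn* after removal turned on the deposited scale, with array weights and with a pseudocount of 1, and that for *Dcn* on the diet turned on the deposited scale and with arrays centred on the 75th percentile. With each array of these groups left out in turn, *Ogn* differences lay between -4.56 and -3.97 and *Ogn* was past the threshold in neither comparison; *Lum* was past it after doxycycline removal without monotransgenic sample 8 and in no other of these refits.

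The second question was whether bitransgenic mice differed from monotransgenic mice in experiment 2 and set 3. The contrasts of these sets did not choose the genes. That *Ogn* varied among monotransgenic arrays was known at the choice, however, so these results are not independent of it. In experiment 2, 12 genes passed (0.096%), and 0 of 4 members. Of all genes, 1805 (14.4%) had an unadjusted limma p under 0.05 there. *Ogn* was 2.98-fold lower in bitransgenic mice (log2 difference -1.57 ± 0.74, SE, 95% interval -3.11 to -0.04), which did not pass (limma, adjusted p = 0.335). *Lum* differed by 0.28 ± 0.28 (adjusted p = 0.643), *Dcn* by 0.17 ± 0.26 (adjusted p = 0.778) and *Bgn* by 0.41 ± 0.37 (adjusted p = 0.608). Without monotransgenic sample 8, the array dimmest in *Dcn* and *Bgn*, those 2 differences became -0.19 and -0.08. *Omd*, fitted without the filter, differed by 0.43 ± 0.19 (adjusted p = 0.369).

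In set 3, 0 genes of 12499 passed (0%), with 524 genes (4.19%) at an unadjusted limma p under 0.05. *Ogn* was 4.27-fold lower in bitransgenic mice (-2.09 ± 0.74, SE; limma, adjusted p = 1.00), and leaving out monotransgenic replicate 2 moved this to -3.34 with adjusted p = 0.0168, so 1 array decided the call. *Lum* differed by -0.37 ± 0.28, *Dcn* by -0.15 ± 0.26 and *Bgn* by 0.31 ± 0.37, each with adjusted p = 1.00.

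**Figure D2:**
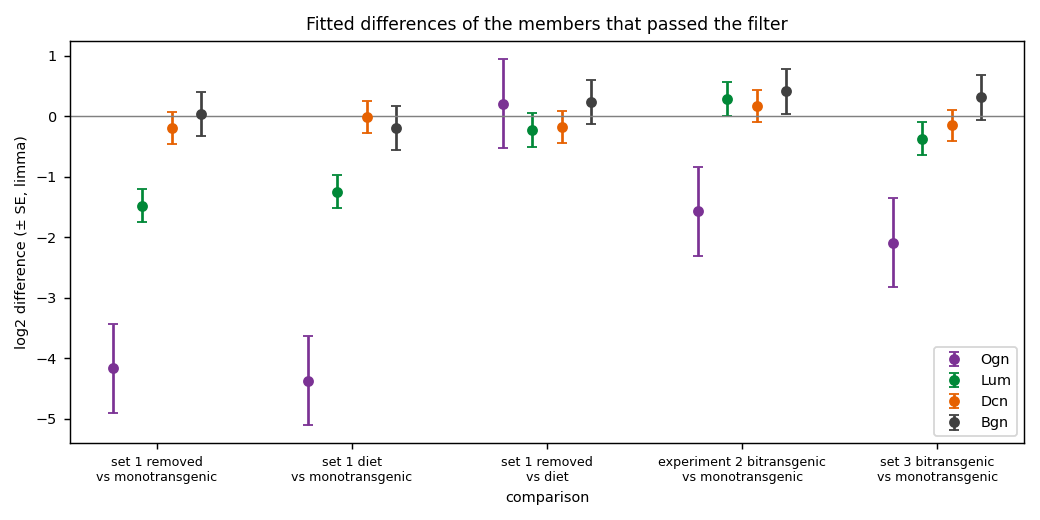
Fitted log2 differences (points) with standard errors (bars) from limma for the 4 tested genes in 5 comparisons, 3 arrays a group. *Ogn* lies at -4.16 and -4.37 against set 1 monotransgenic mice and at -1.57 and -2.09 in experiment 2 and set 3, while *Lum* is below -1 only against set 1 monotransgenic mice, the contrasts that chose it.

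Averaged over experiment 2 and set 3, *Ogn* was 3.57-fold lower in bitransgenic mice (-1.83 ± 0.52, SE, 95% interval -2.92 to -0.75), the lowest log2 difference of all 12499 genes, and did not pass (limma, adjusted p = 0.335; 2 genes passed, 0.016%). By p it ranked 77, since its arrays also spread widely. For this mean, 1190 genes (9.52%) had an unadjusted limma p under 0.05. An exact two-sided permutation test of the same mean, with arrays relabelled within each set (400 labelings, smallest possible p = 0.005), gave p = 0.055, and p = 0.045 on the deposited scale. Leaving out set 3 monotransgenic replicate 2, the array lowest in *Ogn* of its group, gave -2.46 (limma, adjusted p = 0.00478). Array weights, which count divergent arrays less, gave -2.02 (adjusted p = 0.0204). The other 21 refits of this mean did not pass, at -2.14 to -0.77. The other 4 permutation settings also stayed at 0.05 or above, with differences of -2.06 to -1.42. The second *Ogn* probe set, fitted beside all others, gave -0.77 ± 0.23 (adjusted p = 0.223). Its mean log2 values were 5.53 to 6.18 in monotransgenic groups and 4.76 to 4.94 in bitransgenic groups, around the filter limit of 4.90. It thus passed the filter through the monotransgenic groups, and its fit adds no separate support.

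*Lum* differed by -0.04 ± 0.20 over these sets (95% interval -0.45 to 0.37; limma, adjusted p = 0.956; exact permutation p = 0.85). The set 1 differences of -1.48 and -1.25, which chose the gene, lie outside that interval, and the difference between sets was not tested for them. *Dcn* differed by 0.01 ± 0.19 (adjusted p = 0.990) and *Bgn* by 0.36 ± 0.26 (adjusted p = 0.694). *Omd*, fitted without the filter, was higher by 0.40 ± 0.13 (adjusted p = 0.465). Against set 1 monotransgenic mice the same fit gave *Omd* differences of 0.70 ± 0.19 after doxycycline removal (limma, adjusted p = 0.254) and 0.26 ± 0.19 on the diet. The sign of the *Lum* value turned without the 2 arrays of highest beta-actin 3′ to 5′ ratio (0.01) and that of *Dcn* on the deposited scale (-0.07). Those 2 arrays were experiment 2 bitransgenic sample 4 (log2 ratio 6.24), the lowest of its group in *Ogn*, and experiment 2 monotransgenic sample 1 (5.84). The other arrays had 4.11 to 5.30. The difference between experiment 2 and set 3 was 0.52 for *Ogn* (adjusted p = 0.888) and 0.66 for *Lum* (adjusted p = 0.636), and did not pass for any member. *Xist*, which females express from the inactive X chromosome, read 2361 to 4750 on the 6 arrays of experiment 2 and 9.59 to 33.7 on the 15 arrays of sets 1 and 3, so experiment 2 and this difference in *Xist* cannot be told apart in any comparison between sets, also for *Bgn*, which is on X.

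Spread within groups set *Ogn* apart from the other members. Its residual SD within the 7 groups was 1.07 log2 units, rank 14 of 12499, and within the monotransgenic groups alone 1.48, rank 5, against gene medians of 0.25 and 0.24. Within-group SDs of *Lum*, *Dcn* and *Bgn* were 0.36, 0.33 and 0.51 over all groups, with *Bgn* at rank 458. That *Ogn* varies among monotransgenic arrays was known when the genes were chosen, so its rank is a description. The 9 monotransgenic arrays fell into separate runs in *Ogn*: 6 at 525 to 824, namely the 3 of set 1, sample 8 of experiment 2 and replicates 1 and 3 of set 3, and 3 at 41.2 to 153, namely samples 1 and 2 of experiment 2 and replicate 2 of set 3.

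Across the 9 monotransgenic arrays, after subtracting group means, *Ogn* and *Lum* correlated with Pearson's r = 0.83 (Spearman's rho 0.83), and across all 21 arrays with r = 0.65. These arrays share scaling and group, and given the separate runs the relation cannot be tested. It rested on set 3 monotransgenic replicate 2, low in both genes: without it r was 0.42, and without the 2 arrays farthest from the median in *Ogn* r was 0.40 (n = 7). Among the 6 arrays of high *Ogn*, uncentred levels gave r = 0.64. In experiment 2 both genes ran in the same order over samples 8, 1 and 2, but their levels set against set 1 differed: sample 8 had an *Ogn* level of 525, near the 556 to 728 of set 1, and a *Lum* level of 32.7, under the 63.1 to 112 of set 1.

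**Figure D3:**
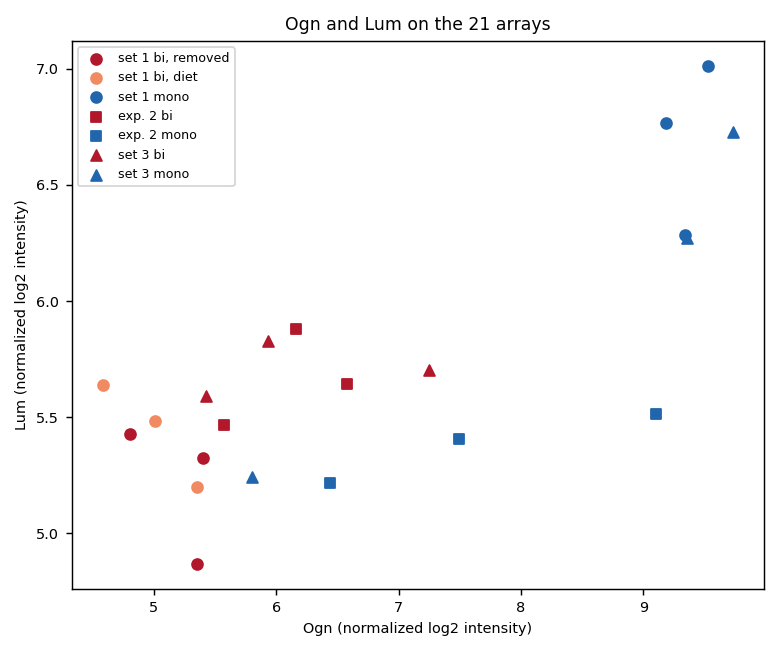
Normalized log2 intensity of *Ogn* (x axis) and *Lum* (y axis) on the 21 arrays, with colour for genotype and treatment and shape for set. The set 1 monotransgenic arrays and 2 of set 3 are high in both genes, experiment 2 monotransgenic sample 8 (525 for *Ogn*, 32.7 for *Lum*) is high in *Ogn* alone, and set 3 monotransgenic replicate 2 is low in both.

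Correlations of the other pairs moved with the arrays used. Over the 9 monotransgenic arrays r was -0.29 for *Ogn* with *Dcn* and -0.44 for *Ogn* with *Bgn*, and without set 3 monotransgenic replicate 2 these were -0.71 and -0.86. Among the 6 arrays of high *Ogn*, uncentred, they were 0.35 and 0.25. *Lum* had r = 0.07 with *Dcn* and -0.15 with *Bgn* over the 9 arrays, -0.04 and -0.33 without that replicate, and 0.87 and 0.76 among the 6 arrays. *Dcn* and *Bgn* correlated at 0.94, and at 0.71 without experiment 2 monotransgenic sample 8, where both were lowest, but at 0.25 over all 21 arrays.

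The 10 genes most like *Ogn*, by Pearson's r of deviations from the group means over the 9 monotransgenic arrays, ran from r = 0.994 to 0.978. They were *St8sia4*, a polysialic acid synthase, *Fat4*, a giant cadherin, *Syt7*, a synaptic calcium sensor, *Npy2r*, a neuropeptide Y receptor, *Cemip*, which acts in hyaluronan breakdown, *Epb41l4b*, *Dsg2*, a desmosomal cadherin, *Itga8*, an integrin subunit, *Ajap1* and *Slc27a2*, a fatty acid transport protein. *Cemip* had normalized log2 levels of 8.59 to 8.93 on the 6 arrays of high *Ogn*, 6.60 and 6.25 in samples 1 and 2 of experiment 2 and 5.59 in set 3 replicate 2. *Dsg2* read 7.72 to 8.98 on the former 6, and 6.72, 6.04 and 5.32 on the latter 3 in the same order. These genes were picked as the highest of 12499, so their r carries no test. In none of the 10 did the bitransgenic difference pass in experiment 2 or set 3. Of all genes 0.096% and 0% passed there, so this describes nothing particular to the 10. The difference was -0.73 and -1.78 for *Dsg2* (limma, adjusted p = 0.582 and 1.00) and -0.11 and -1.49 for *Cemip* (adjusted p = 0.952 and 1.00). In experiment 2 *St8sia4*, the gene most like *Ogn*, and *Itga8* were higher, by 0.63 and 0.41, and the others were lower. In set 3 all 10 were lower, with differences from -1.78 to -0.05 (*Slc27a2*).

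**Figure D4:**
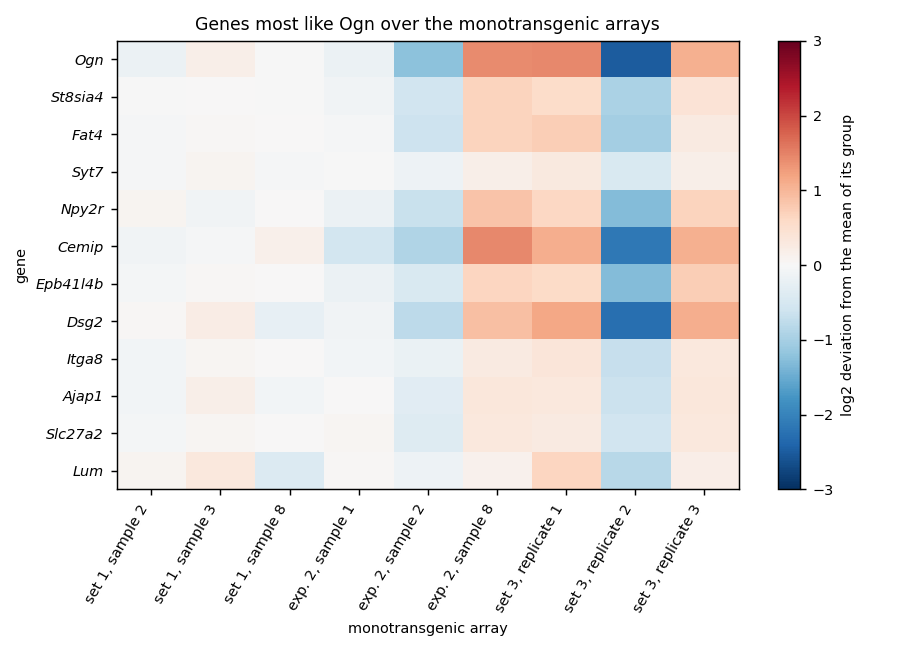
Deviation of normalized log2 intensity from its group mean (colour, red above and blue below) for *Ogn*, the 10 genes most like it and *Lum* on the 9 monotransgenic arrays. The set 3 replicate 2 column lies below its group mean in all 12 rows. Experiment 2 sample 8 lies above its group mean in all 12, most in *Cemip* (1.44) and *Ogn* (1.42) and least in *Lum* (0.14). The 3 set 1 columns are pale.

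The genes most like *Lum* by the same rule were others: *Tprkb* (r = 0.977), *Cdc42bpg*, *Ccdc177*, *C1qbp*, *D630045J12Rik*, *Wfdc18*, *Mfsd13b*, *Nop56*, *Septin6* and *Rpl12* (r = 0.934). With 1 array left out, the lowest r of these 10 was 0.76 (*Nop56*), against 0.93 (*Ajap1*) among the genes like *Ogn*.

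Of the other matrix genes listed, 0 were past the limma threshold in any of the 6 comparisons, where 0% to 0.096% of all genes were, so a count of 0 describes nothing particular to them. Of 9 further family members on the array, 3 were tested (*Chadl*, *Nyx* and *Podn*), and their differences over experiment 2 and set 3 had a median of 0.24 against 0.02 for all genes. Between doxycycline removal and diet the same 3 genes had a median of -0.24, all 3 lower. The summed intensity of all 9, of which 3 passed the filter, was 104 to 115 against 150 to 168, without overlap. Over experiment 2 and set 3, *Podn*, at 22.7 to 59.5 units, differed by 0.24 ± 0.17 (limma, adjusted p = 0.683). *Aspn*, *Ecm2*, *Kera*, *Epyc* and *Optc*, which neighbour the members on their chromosomes, did not exceed 22.1 on any array. Of 11 tested fibrillar collagens and matrix partners, 7 had a positive and 4 a negative difference over experiment 2 and set 3 (median 0.10). *Col6a2* was at 0.45 ± 0.30 (limma, adjusted p = 0.665) and *Col6a1* at -0.58 ± 0.36 (adjusted p = 0.635).

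All differences in this paragraph are averaged over experiment 2 and set 3. Genes that build the glycosaminoglycan chains numbered 20 tested, with 11 positive, 9 negative and a median of 0.02. *Chst12*, a chondroitin sulfotransferase, differed by -0.52 ± 0.17 (adjusted p = 0.377). Of 10 receptors and ligands that these proteoglycans bind, 5 were positive and 5 negative (median -0.04), with *Itgb1*, an integrin subunit, at 0.56 ± 0.24 (adjusted p = 0.494) and *Tgfbr1*, a TGF-beta receptor, at -0.27 ± 0.14 (adjusted p = 0.572). Of 10 matrix proteases and their helpers, 3 were positive and 7 negative (median -0.18), with *Bmp1*, which trims proteoglycan precursors, at -0.54 ± 0.18 (adjusted p = 0.377).

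Markers of meningeal fibroblasts, the cells best known for these proteoglycans, were mostly near the floor. Of 20 on the array, 7 passed the filter, the brightest being *Zic1* (42.5 to 163), *Islr* (50.3 to 126) and *Fbln1* (14.2 to 57.7). Among those that failed, *Col1a1*, *Col3a1*, *Slc6a13* and *Aldh1a2* did not exceed 21.1, 16.3, 12.5 and 11.5 on any array. The summed intensity of all 20, in which *Zic1* and *Islr* weigh most, was 365 to 470 in set 1 monotransgenic arrays. It was 300.2 to 407 after removal and 339 to 406 on the diet, both overlapping the monotransgenic range. It was 449 to 462 in experiment 2 monotransgenic and 310 to 392 in bitransgenic arrays, without overlap, and 285 to 339 and 305 to 360 in set 3. *Ogn* read 79.6 to 525 on the 3 experiment 2 monotransgenic arrays. Since only 7 of the 20 genes passed the filter, the sum of all 20 says little about fibroblast content. In set 3 monotransgenic replicate 2 this sum was 285, against 335 and 339 on the other arrays of its group, and the granule cell sum was 19339 against 25409 and 26414. Of the 9 granule cell markers, 8 were lower in set 3 bitransgenic mice (median log2 difference -0.435 against 0.03 for all genes). In experiment 2, 5 were lower (-0.027 against 0.016). Between removal and diet, 8 were lower (-0.198 against -0.009). Against set 1 monotransgenic mice, 7 were lower after removal and 6 on the diet. Markers of mural cells of vessel walls, 7 of 10 of which passed the filter, also differed in sum between some groups. Their summed intensity was 480 to 543 in set 1 monotransgenic arrays against 362 to 429 after removal, without overlap, and 403 to 507 on the diet, with overlap. It was 358 to 566 against 269.8 to 320 in experiment 2, without overlap, and 528 to 620 against 575 to 619 in set 3. In monotransgenic sample 8 of experiment 2, its highest array in *Ogn*, the mural sum was the lowest of its group at 358. The microglial sum was 1249 to 1696 in set 1 monotransgenic arrays, 991 to 1160 after removal and 1180 to 1427 on the diet, and the collagen list had 595 to 807, 482 to 576 and 543 to 652 in the same order. Sums of 5 further lists separated at least 1 pair of groups. How often sums of other genes separate groups of 3 arrays was not counted, so nothing is read from separations of any list sum. All sums cover every gene of a list on the array, whether or not it passed the filter. Markers of the CA fields had 692 to 725 in set 1 monotransgenic arrays against 618 to 689 after removal, and 604 to 667 in set 3 monotransgenic against 691 to 779 in bitransgenic arrays. The binding partners had 1677 to 2415 in set 1 monotransgenic arrays, 1400.02 to 1526 after removal and 2061 to 2184 on the diet, and the chain synthesis genes 5555 to 5651, 5915 to 6060 and 5236 to 5429. The 9 further family members on the array had 115 to 201 in set 1 monotransgenic arrays, just above the 104 to 115 after removal. The proteases had 1427 to 1610 in set 3 monotransgenic against 1626 to 1696 in bitransgenic arrays. The part of these lists in the *Ogn* and *Lum* values was not tested.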

How the data were processed

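The values were intensities deposited by the authors, 1 linear value per probe set and array; from the values, each array had a mean of 150 after 2% of probe sets at either end were left out. Their software was not given in the sources used here. Detection calls were not used. Values were transformed to log2(deposited intensity + 16) and quantile normalized, because array medians ran from 5.19 to 5.49. The upper 60% of probe sets by mean were kept (27022), with the brightest standing for its gene. Intensities in the text are unnormalized; log2 differences are normalized.

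limma 3.58.1 (R 4.3.3, data.table, version 1.17.8) fitted 1 coefficient per group over 21 arrays (14 residual degrees of freedom, variance trend), with Benjamini-Hochberg adjustment over 12499 genes, two-sided, threshold 0.05. Errors on log2 differences are standard errors, and errors on intensities are SDs. Having 3 arrays a group limits the precision. *Ogn* and *Lum* were also tested by exact permutation. Samples were grouped from their labels. The fit was checked on simulated data.

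Members, gene lists and tests were chosen with earlier results of these data known. Named were all 7 members, *Rtn4r*, up to 4 genes of lowest p per list and marker genes beside a result. Also named were the 10 genes most like *Ogn* and *Lum*. *Xist*, the second *Dcn* probe set and *Cemip*, *Dsg2*, *St8sia4*, *Itga8* and *Slc27a2* among the 10 were singled out after their values were seen. Lists held further proteoglycans, collagens and matrix partners, chain synthesis, binding partners, proteases, and markers of 9 cell types. The 9 marker lists covered meningeal fibroblasts, granule cells, mural, endothelial and choroid plexus cells, CA fields, astrocytes, oligodendrocytes and microglia. They had 0 members past the threshold in any comparison, where 0% to 0.096% of all genes were. RefSeq entries (GRCm38.p6) served for promoters, found for 5 of 7 members, and for gene order. Alternatives were a pseudocount of 1 or 64, omitting the filter, a filter at the upper 40%, no normalization, 75th-percentile centring, each set alone, averaged probe sets, array weights, the title number as a factor in set 3, leaving out the 2 arrays of highest actin ratio or each array in turn and, added after seeing the data, the second *Ogn* probe set.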

Additional observations from a re-analysis of the deposited data

How the results depend on the processing

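*Ogn* kept its negative sign against monotransgenic mice in all alternatives of all 5 such comparisons, from -5.34 to -0.76. Its second probe set gave the differences nearest 0. Over experiment 2 and set 3 the members past the threshold numbered 0, and 1 with array weights; leaving out each array in turn gave 0 to 1 there and in set 3. In the set 1 contrasts that chose *Ogn* and *Lum*, counts past the threshold describe the settings and say nothing of stability. For doxycycline diet against monotransgenic mice the count of 1 became 2 with array weights or set 1 alone, 0 with the mean of probe sets, no filter or a pseudocount of 64, and 0 to 0 with an array left out. For doxycycline removal it went from 2 to 0 with the mean of probe sets, to 1 with no filter, a pseudocount of 1 or the upper 40%, and to 0 to 1 with an array left out. At the upper 40% *Lum* failed the filter and was not tested. The permutation difference of *Ogn* was -1.90 (exact p = 0.045) on the deposited scale, and that of *Lum* turned to 0.011 without the 2 arrays of highest actin ratio, as did its fitted mean difference. The *Ogn* and *Lum* correlation ran from 0.42 to 0.91 with an array left out.

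Signs of small differences, none past the threshold, also turned. *Bgn* after removal against monotransgenic mice was -0.036 with array weights, -0.0015 on the deposited scale and -0.11 with a pseudocount of 1, and -0.38 to 0.52 with an array left out. *Dcn* over experiment 2 and set 3 was -0.067 on the deposited scale, -0.003 with a pseudocount of 64 and -0.17 to 0.15 with an array left out; on the diet it was 0.0111 on the deposited scale, 0.0109 centred on the 75th percentile and -0.15 to 0.13. With an array left out, *Lum* over experiment 2 and set 3 ran from -0.25 to 0.12, *Bgn* from -0.079 to 0.70 and *Dcn* from -0.19 to 0.46 in experiment 2, and *Bgn* from -0.18 to 0.72 between removal and diet. The causes were not tested beyond the settings themselves. Most members read near or under the filter limit of 13.8, which limits what their differences can show. No paired analysis was possible because replicate numbers only name arrays. In set 3 the number that opens the titles, shared by 2 pairs of arrays and with no stated meaning, left *Ogn* at -2.09 as a factor (limma, adjusted p = 0.957).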
